A study of Mus musculus with 15 samples.

Results

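A set of genes that mark alternatively activated and tissue macrophages were examined in lists of chromatin regions of bone marrow-derived macrophages (BMDMs) of the mouse. They were 10 of 21938 protein-coding genes of the GENCODE M21 annotation, namely Arg1, Retnla, Chil3, Mrc1, Mgl2, Il4ra, F13a1, Cd163, Stab1 and Clec10a. For each gene the window was the gene body plus 5 kb upstream, and the measurement was the percent of that window covered by called regions (the cover). The genes were chosen by name, partly on differences between the genotypes in the cover of these same lists, so the differences below are a description and carry no test.

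CUT&RUN was used on BMDMs from C57BL/6 mice aged 8 to 10 weeks; in this assay a nuclease tethered by an antibody cuts out the DNA around its target for sequencing. Wild-type (WT) cells carried H3f3a fl/fl and H3f3b fl/fl alleles without Cre, and H3.3 conditional knockout (cKO) cells carried the same alleles with LysM cre/cre, a Cre inserted at Lyz2 that acts in macrophages and granulocytes. The H3.3-HA cells came from mice whose H3f3b gene carries an HA tag, with no floxed allele named for them. All cells grew for 6 to 8 days in medium with 20% L929 conditioned medium, a source of M-CSF, and no IL-4 or other stimulus is named for them. Lists of 10 libraries were used. There were 2 for H3.3-HA, and for H3K27ac as for H3K36me3 there were 2 from WT and 2 from cKO cells, called biological replicates. The 5 IgG control samples served as input for region calling and are not analysed here by themselves.

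Macrophages exposed to IL-4 or IL-13 signal through IL-4 receptor alpha to STAT6 and turn on a set of genes that includes Arg1, Retnla, Chil3, Mrc1, Mgl2 and Clec10a. Scavenger receptors such as CD163 and stabilin-1 mark macrophages that live in tissues. H3.3 is the histone H3 variant that is built into chromatin outside replication, acetylation at lysine 27 (H3K27ac) marks active promoters and enhancers, and trimethylation at lysine 36 (H3K36me3) is laid down over the bodies of transcribed genes.

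The libraries held 5365319 to 29988098 tags. H3K27ac lists covered 89.6 and 74.8 Mb in WT and 46.2 and 62.0 Mb in cKO, and H3K36me3 lists 164 and 170 Mb in WT and 90.7 and 163 Mb in cKO. The cKO H3K36me3 replicate 1 stood apart, with 19.3% of its tags in regions against 46.5 to 50.2% in the other H3K36me3 libraries. A deletion was not visible at the targeted genes: H3K27ac regions covered 16.4 and 16.5% of the H3f3a body in WT and 26.9 and 20.8% in cKO, and 23.9 and 24.1% of the H3f3b body in WT and 55.4 and 73.6% in cKO. H3K36me3 regions covered 72.3 and 77.8% of the H3f3a body in WT and 67.9 and 73.0% in cKO. At H3f3b they covered 10.7 and 14.2% in WT and 39.6 and 33.6% in cKO. Cover of a whole body could miss the loss of a part of a gene, as designed for H3f3a. The paper reports the deletion in BMDMs by PCR, RNA and western blot, with that of H3f3b variable between samples. WT and cKO are used here as the labels give them, and each direction rests on the labels. All 8 macrophage markers examined carried a region in 9 of the 10 libraries, 7 of 8 in the other. Their summed H3K27ac cover was 317 and 270% in WT and 207 and 237% in cKO, with 4 of the 8 lower, 1 higher and a median difference of -5.03 percentage points. One of them, Lyz2, the locus that carries the Cre, had 94.2 and 88.4% in WT and 28.1 and 24.4% in cKO. Without Lyz2 the sums of WT and cKO overlapped. Summed H3K36me3 cover of the 8 macrophage markers was 460 and 490% in WT and 499 and 614% in cKO, which also overlapped without Lyz2. Of the 8, 3 were higher and 0 lower, with a median difference of 2.97 points. Over all genes with an H3K36me3 region 7.85% were higher and 37.7% lower. None of 5 fibroblast markers carried a region in any library. Neutrophil markers carried H3K27ac regions at 2 to 4 of 8 genes, with a summed cover of 24.6 to 25.4% in WT and 22.5 to 36.5% in cKO, and no H3K36me3 region. Summed H3K27ac cover of 5 dendritic cell markers was 35.4 and 19.8% in WT and 25.7 and 38.6% in cKO. That of 6 markers of mast cells, basophils and eosinophils was 17.0 and 11.6% in WT and 7.60 and 0% in cKO. That of 4 lymphocyte markers was 0 and 4.88% in WT and 0 and 11.8% in cKO. The part of cell composition in the results below was not tested, and in these bulk libraries fewer cells with a mark and less mark per cell cannot be told apart.

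The sequences behind the main differences are shown first, each read 5′ to 3′ on the strand of its gene (mm10, GRCm38.p6; the Mgl2 promoter is from RefSeq). They are the middle 300 bases of the widest H3K27ac region lost from Mrc1 (here in intron 5, chr2:14257855-14258154, plus strand), of the widest one lost from Stab1 (here in intron 50, chr14:31144745-31145044, minus strand), of the regions gained at F13a1 (intron 3, chr13:37019415-37019714, minus strand) and upstream of Chil3 (chr3:106171120-106171419, minus strand), and of the longer of the stretches upstream of Arg1 that all 4 H3K27ac libraries covered (chr10:24930449-24930748, minus strand). The promoter of Mgl2 (chr11:70130107-70130406, plus strand) is shown because it carried H3.3-HA without either mark. Arg1 and Mgl2 were added after their values were seen. The Stab1 bases shown were called in WT replicate 1 only, although both WT libraries held the merged region around them (1387 and 781 bp). Capitals mark matches to the motifs named after the sequences.
Mrc1 lost region: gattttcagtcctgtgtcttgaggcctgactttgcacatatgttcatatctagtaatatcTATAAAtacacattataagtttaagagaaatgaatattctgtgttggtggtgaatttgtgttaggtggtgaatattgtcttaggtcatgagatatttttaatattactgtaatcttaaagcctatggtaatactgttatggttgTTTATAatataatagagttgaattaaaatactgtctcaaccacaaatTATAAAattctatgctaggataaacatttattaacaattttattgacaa
Stab1 lost region: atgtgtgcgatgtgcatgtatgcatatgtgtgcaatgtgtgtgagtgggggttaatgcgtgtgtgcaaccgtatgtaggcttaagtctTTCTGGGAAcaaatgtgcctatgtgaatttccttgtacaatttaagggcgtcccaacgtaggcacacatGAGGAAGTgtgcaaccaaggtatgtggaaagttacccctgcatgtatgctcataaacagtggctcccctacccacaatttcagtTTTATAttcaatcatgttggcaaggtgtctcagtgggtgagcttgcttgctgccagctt
F13a1 gained region: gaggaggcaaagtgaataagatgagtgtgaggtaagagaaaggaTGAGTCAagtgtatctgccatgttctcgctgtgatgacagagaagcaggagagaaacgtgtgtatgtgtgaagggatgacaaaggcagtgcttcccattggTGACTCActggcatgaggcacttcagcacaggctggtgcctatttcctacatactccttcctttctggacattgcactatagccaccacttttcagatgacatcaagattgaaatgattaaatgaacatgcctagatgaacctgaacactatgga
Chil3 gained region: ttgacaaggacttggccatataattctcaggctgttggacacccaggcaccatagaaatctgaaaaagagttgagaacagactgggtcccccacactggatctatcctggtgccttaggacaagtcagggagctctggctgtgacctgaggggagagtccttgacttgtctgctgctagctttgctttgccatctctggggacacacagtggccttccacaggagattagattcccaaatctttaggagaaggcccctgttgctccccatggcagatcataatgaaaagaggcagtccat
Arg1 upstream stretch: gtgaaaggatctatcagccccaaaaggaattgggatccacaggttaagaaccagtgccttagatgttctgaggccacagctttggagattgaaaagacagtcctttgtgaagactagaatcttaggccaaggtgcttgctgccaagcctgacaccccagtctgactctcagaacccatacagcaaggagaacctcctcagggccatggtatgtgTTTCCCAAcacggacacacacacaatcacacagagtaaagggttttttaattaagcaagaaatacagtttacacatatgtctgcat
Mgl2 promoter: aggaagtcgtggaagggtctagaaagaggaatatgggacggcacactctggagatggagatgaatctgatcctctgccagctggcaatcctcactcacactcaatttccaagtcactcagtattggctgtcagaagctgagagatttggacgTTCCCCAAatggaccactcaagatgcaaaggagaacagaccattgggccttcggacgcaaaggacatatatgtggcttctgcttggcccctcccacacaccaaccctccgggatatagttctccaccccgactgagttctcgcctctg

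Each of 9 windows (these 6, the Mrc1 promoter and the middle of the widest regions lost from Il4ra and F13a1) was searched on both strands for the motif TTCNNNGAA of STAT factors, for the STAT6 motif, which is the same with 1 more N in the middle, for GAGGAAGT of PU.1, and for TTGCGCAA and its looser form TTGNGNAA of C/EBP factors. The AP-1 motif TGANTCA and the TATA box motif (letters TATAAA) were searched too. No window held the STAT6 motif, which 8.38% of the middle 300 bases of all 89774 merged H3K27ac regions and 6.95% of all 32851 promoters held. The region gained in F13a1 held TGANTCA at 2 places, a motif found in 11.7% of region middles. The Stab1 bases, called in WT replicate 1 only, held TTCNNNGAA, GAGGAAGT and TATAAA once each, found in 9.30, 3.48 and 24.6% of region middles. TATAAA stood at 3 places in the AT-rich Mrc1 sequence, and TTGNGNAA once each in the Arg1 stretch and the Mgl2 promoter, against 16.6% of region middles and 13.3% of promoters. The strict form TTGCGCAA was in none of the 9 windows and in 0.0390% of region middles. Arg1 and Clec10a had no entry in the promoter table.

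**Figure D1:**
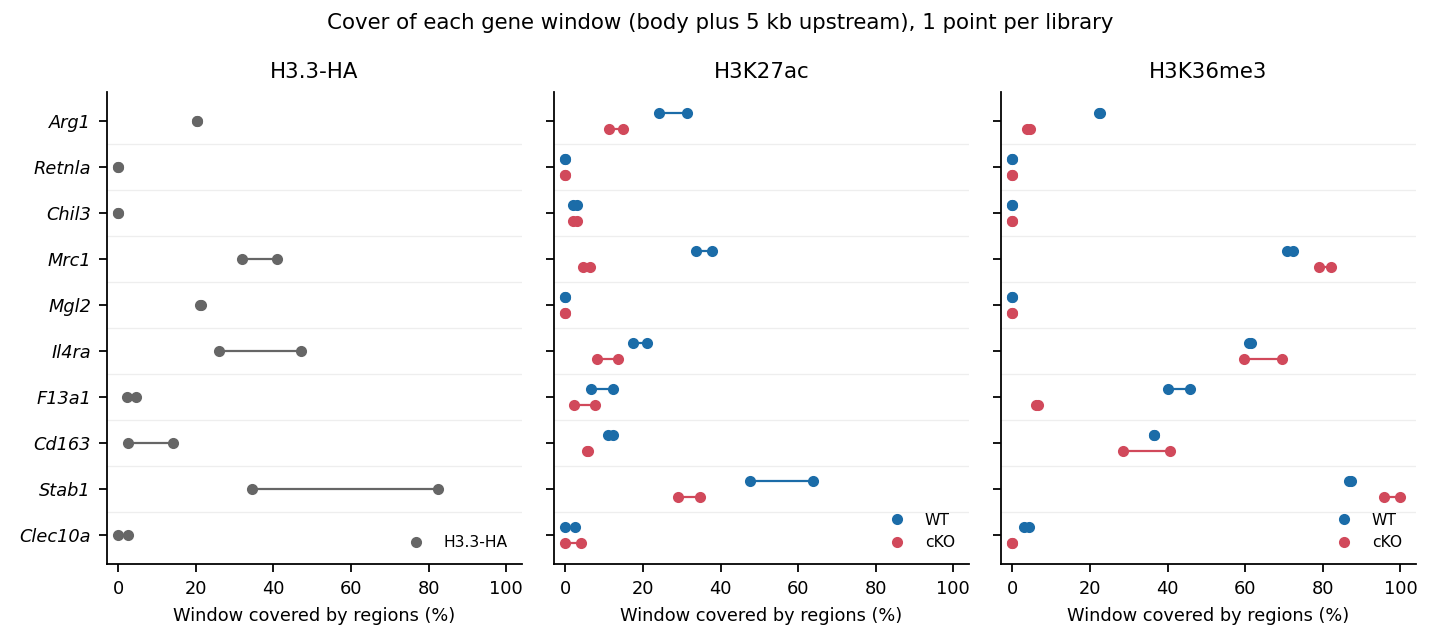
Percent of each gene's window covered by called regions, with 1 point per library and a line joining the 2 libraries of a group. H3K27ac points of cKO (red) lie left of WT (blue) at Arg1, Mrc1, Il4ra, Cd163 and Stab1, while H3K36me3 points lie left at Arg1, F13a1 and Clec10a and right at Mrc1 and Stab1.

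H3K27ac regions lay in the windows of 8 of the 10 genes. Both cKO libraries lay below both WT libraries at 5 of them (Arg1, Mrc1, Il4ra, Cd163, Stab1), the libraries overlapped at 3 (Chil3, F13a1, Clec10a), and cKO lay above WT at none. Of all 12767 genes with an H3K27ac region, 38.2% were lower and 17.4% higher by the same rule. The median difference, cKO minus WT, was -7.04 percentage points over the 8 genes and -1.02 over all 12767. For H3K36me3, 7 of the 10 genes had a region, of which 3 were lower in cKO (Arg1, F13a1, Clec10a), 2 higher (Mrc1, Stab1) and 2 overlapped (Il4ra, Cd163), where 37.7% of all 11975 genes with a region were lower and 7.85% higher. Their median difference was -1.87 points, against -4.99 over all. Every comparison was of 2 against 2 libraries, for which the smallest exact permutation p is 0.333. The lists themselves differed in covered length, and with cover divided by it the H3K27ac differences became -22.5 points at Mrc1, -6.37 at Arg1, -5.41 at Stab1, -2.31 at Cd163 and -2.25 at Il4ra. The same scaling gave H3K36me3 differences of 38.0 at Mrc1, 45.9 at Stab1, 25.6 at Il4ra and 9.25 at Cd163. It left -29.9 at F13a1, -14.8 at Arg1 and -3.21 at Clec10a, all still lower in cKO. Scaled cover is no longer a share of the window and can exceed the whole of it. For H3K36me3 the scaling raised cKO replicate 1 most, whose list covered least (90.7 Mb), so these values lean on that library.

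Among the receptors, Mrc1 differed most in H3K27ac. Mrc1 encodes the mannose receptor CD206 (ENSMUSG00000026712.3, chr2:14229392-14332057, plus strand, 30 exons). Regions covered 37.9 and 33.7% of its window in WT and 6.38 and 4.55% in cKO, a difference of -30.3 points and a 6.55-fold lower mean cover in cKO. The groups were far apart, with no cKO library near either WT library.

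Of the 29190 bases that both WT libraries covered at Mrc1, 12.1% were covered in both cKO libraries and 76.5% in neither. The 4 lists merged into 24 regions, of which 3 were found in all 4 libraries and 8 were lost, that is, found in both WT libraries and in neither cKO library. A lost region was found in the windows of 37.3% of all genes with H3K27ac. The 8 lost regions ranged from 604 to 3763 bp and lay in introns 3, 4, 5, 7 to 11, 21 and 25, with parts over exons 5, 8, 9 and 25. The 3 that remained lay at the start site (-1.20 to 6.14 kb in the merged set) and around exons 3 and 4. At the start site itself, taken as 1 kb upstream to 100 bp downstream, both WT libraries covered all 1101 bp, cKO replicate 1 covered 837 bp and cKO replicate 2 covered 0.

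H3K36me3 at Mrc1 went the other way. Its cover was 70.7 and 72.2% in WT and 78.9 and 82.2% in cKO, so both cKO libraries were higher, by a mean of 9.08 points. Both cKO libraries covered 97.8% of the 74409 bases that both WT libraries covered, and 7203 further bases that neither WT library covered. In the first 10% of the gene body the cover was 48.9 and 50.6% in WT and 74.3 and 87.1% in cKO. H3.3-HA regions covered 40.9 and 32.0% of the window, more than in 97.3% of all genes. Of the bases with H3.3-HA in both libraries, 42.6% carried H3K27ac in both WT libraries and 80.1% carried H3K36me3. The genes nearest to Mrc1 over the 10 values, by Euclidean distance, were Sgpl1, Wnk1 (25.1 points) and Dhx9 (25.2 points).

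**Figure D2:**
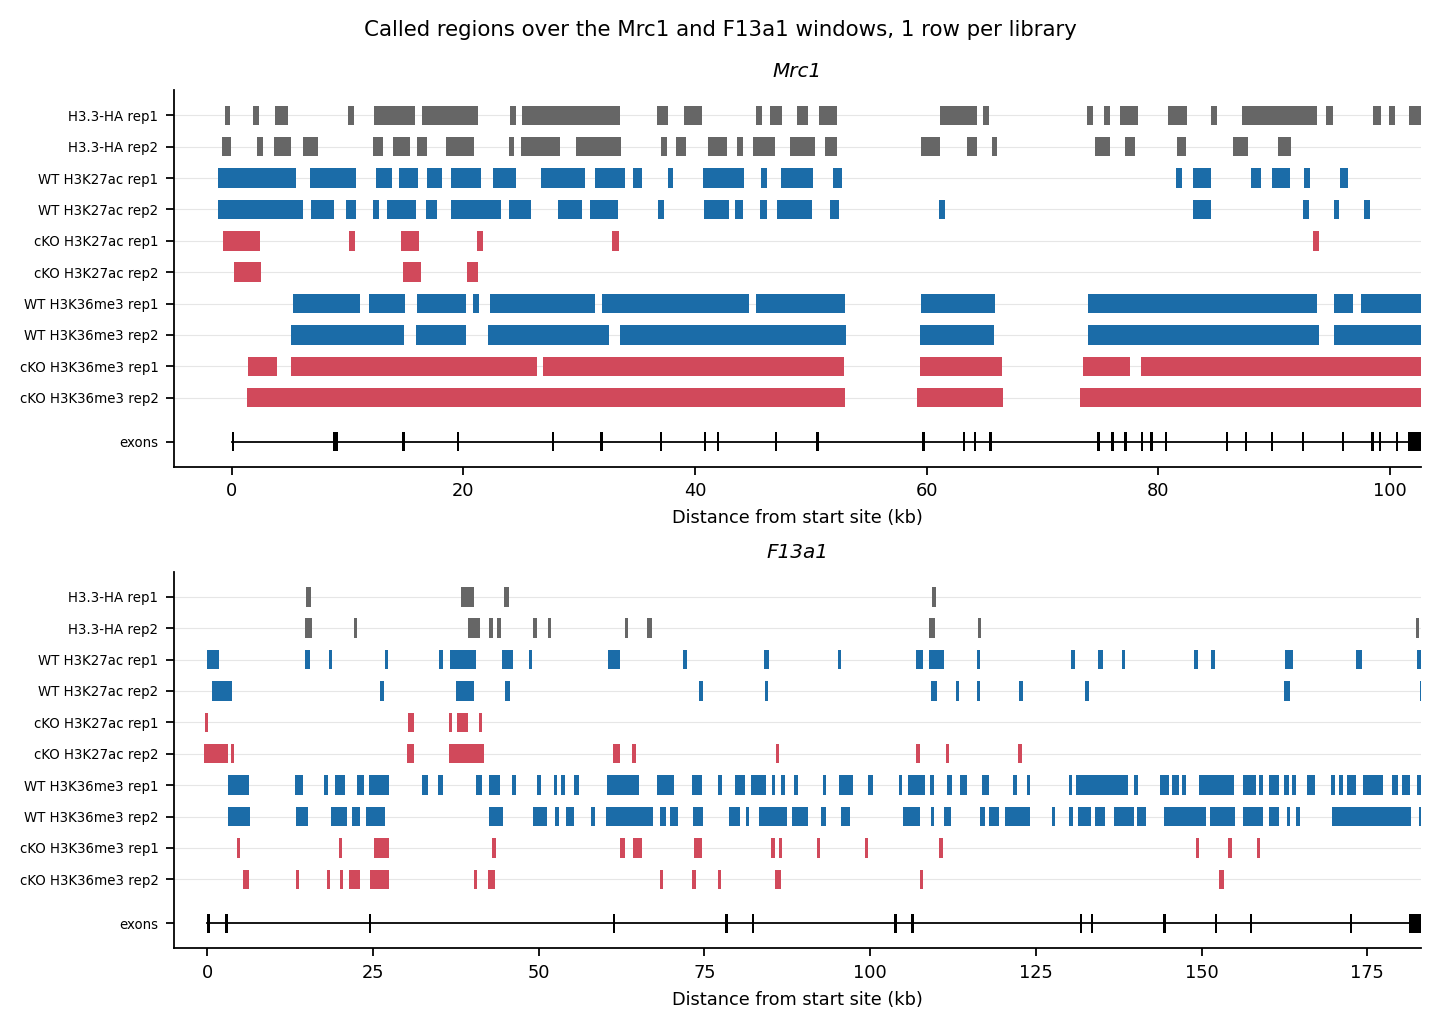
Called regions along Mrc1 (top) and F13a1 (bottom) by distance from the start site in kb, 1 row per library, with exons as black bars. At Mrc1 the red cKO H3K27ac rows are nearly empty beyond the start of the gene while the H3K36me3 rows of both genotypes run the length of the gene, and at F13a1 the cKO H3K36me3 rows hold a few short regions where WT holds many.

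Stab1 showed the same pair of differences. It encodes stabilin-1, a scavenger receptor of tissue macrophages and sinusoidal endothelium (ENSMUSG00000042286.13, chr14:31139013-31168641, minus strand, 69 exons). H3K27ac covered 63.9 and 47.7% of its window in WT and 29.1 and 34.8% in cKO, a difference of -23.8 points, which was -15.8 without WT replicate 1. The start of the gene stayed covered: the first 10% of the body was at 100% in all 4 libraries. With the body cut into 10 equal parts, cKO cover was 0 in the last 6, where WT replicate 1 held 12.7 to 67.3% and WT replicate 2 held 0 to 42.4% of a part.

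The 3 regions lost from Stab1 were 981, 1761 and 2108 bp wide and lay between intron 25 and intron 50. H3K36me3 covered 87.2 and 86.8% of the window in WT and 95.7 and 100% in cKO, a difference of 10.8 points. These values came from a merged H3K36me3 region of 73176 bp that also ran over the neighbour genes Nt5dc2 and Nisch, both of which reach into the window, so the mark cannot be assigned to Stab1 alone. With 20 kb added on both sides the 2 groups overlapped. The H3K27ac region at the start of Stab1, 15545 bp in the merged set, also ran over Nisch. H3K27ac cover of Nisch was 51.9 and 42.8% in WT and 26.9 and 39.5% in cKO. H3.3-HA covered 34.4 and 82.5% of the Stab1 window, the widest spread between replicates among the 10 genes. Its regions also ran over Nt5dc2 and Nisch. H3K27ac lower together with H3K36me3 higher was found at 2 of the 7 genes measured for both marks, Mrc1 and Stab1, and at 2.13% of 10774 genes. The same pair was found at the macrophage marker Lyz2 and at genes of the tissue-resident, effector and classical activation lists described below. The genes nearest to Stab1 over the 10 values, Slc6a6 (33.5 points), Nckap1l and Mdm2, showed it too. Those nearest to Mrc1 did not.

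Cd163 encodes the haemoglobin-haptoglobin scavenger receptor (ENSMUSG00000008845.9, chr6:124304656-124330527, plus strand). Its H3K27ac was a single region inside the gene, 14.5 to 18.2 kb from the start site in the merged set, over exons 10 and 11. That region was 3772 and 3355 bp wide in WT and 1711 and 1792 bp in cKO, giving covers of 12.2 and 10.9% against 5.54 and 5.80%. Both cKO libraries kept the same 3′ part, which held the one stretch with H3.3-HA in both libraries (16.9 to 18.0 kb), and 90.4% of its 813 H3.3-HA bases with WT H3K27ac stayed covered, against 38.4% of the 2542 bases without H3.3-HA. Over all 10 genes the order was the opposite, with 25.9% of the bases with H3.3-HA kept and 34.4% of those without, and it was the opposite at Mrc1 (7.94 and 14.1%), Il4ra (33.2 and 53.7%), F13a1 (0 and 28.5%) and Stab1 (48.0 and 66.1%). The start site carried no H3K27ac in any library. H3K36me3 overlapped between genotypes, at 36.4 and 36.4% in WT and 28.4 and 40.7% in cKO. One H3K36me3 region of 714 bp was lost, at -5.50 to -4.78 kb, upstream of the gene.

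Il4ra encodes the alpha chain shared by the IL-4 and IL-13 receptors (ENSMUSG00000030748.9, chr7:125552120-125579474, plus strand, 11 exons). H3K27ac regions covered 21.0 and 17.5% in WT and 8.30 and 13.7% in cKO, so the groups did not overlap and the mean difference was -8.20 points. With 20 kb on both sides the groups overlapped and the difference was -2.72. The merged region at the start site was present in all 4 libraries, which covered 3321 and 3344 bp of it in WT and 2685 and 3947 bp in cKO. Those of cKO replicate 1 were 2 separate regions of 1311 and 1374 bp. There cKO replicate 2 covered most of the 4 and cKO replicate 1 least.

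Both lost regions of Il4ra were intronic, 1032 bp in intron 1 (8.59 to 9.62 kb from the start site) and 701 bp in intron 3. The region in intron 1 lay within an H3.3-HA region of 3097 bp that was found in both H3.3-HA libraries. H3K36me3 covered 61.1 and 61.6% of the window in WT and 59.6 and 69.6% in cKO, which overlapped. Without cKO replicate 1 the difference was 8.26 points and without cKO replicate 2 it was -1.73, so that its direction rested on which cKO library was kept. H3.3-HA stood at 26.0 and 47.2%. Fcgr1, which encodes a high-affinity IgG receptor, was the gene most like Il4ra over the 10 values, at a distance of 12.8 points.

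The lectin receptors Mgl2 and Clec10a, are related galactose-type lectins (CD301b and CD301a) that lie near each other on chromosome 11. Mgl2 (ENSMUSG00000040950.13, chr11:70130329-70137550, plus strand) carried H3.3-HA at 21.4 and 21.2% of its window and no H3K27ac or H3K36me3 region in any of the 8 libraries. The H3.3-HA region lay over the start site, from -1.89 to 0.224 kb in replicate 1 and -2.35 to 0.237 kb in replicate 2, and replicate 1 had a further short region upstream. H3.3-HA in both libraries was found at 7 of the 10 genes (44.2% of all genes), and H3.3-HA in both without a region of either mark was found at Mgl2 and at 1.38% of all genes, or 3.12% of the 9688 with H3.3-HA in both.

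Clec10a (ENSMUSG00000000318.16, chr11:70156197-70170834, plus strand) had little of anything. H3K27ac covered 0 and 2.55% in WT and 0 and 4.11% in cKO, and replicate 1 of both genotypes had no region. H3K36me3 covered 2.96 and 4.35% in WT and 0 in both cKO libraries, from a single lost region of at most 1165 bp over exons 8 to 10. This was one of 3 genes with a lost H3K36me3 region (F13a1, Cd163, Clec10a), where 23.6% of all genes with H3K36me3 had one. Counting only regions of at least 1 kb, the groups overlapped.

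**Figure D3:**
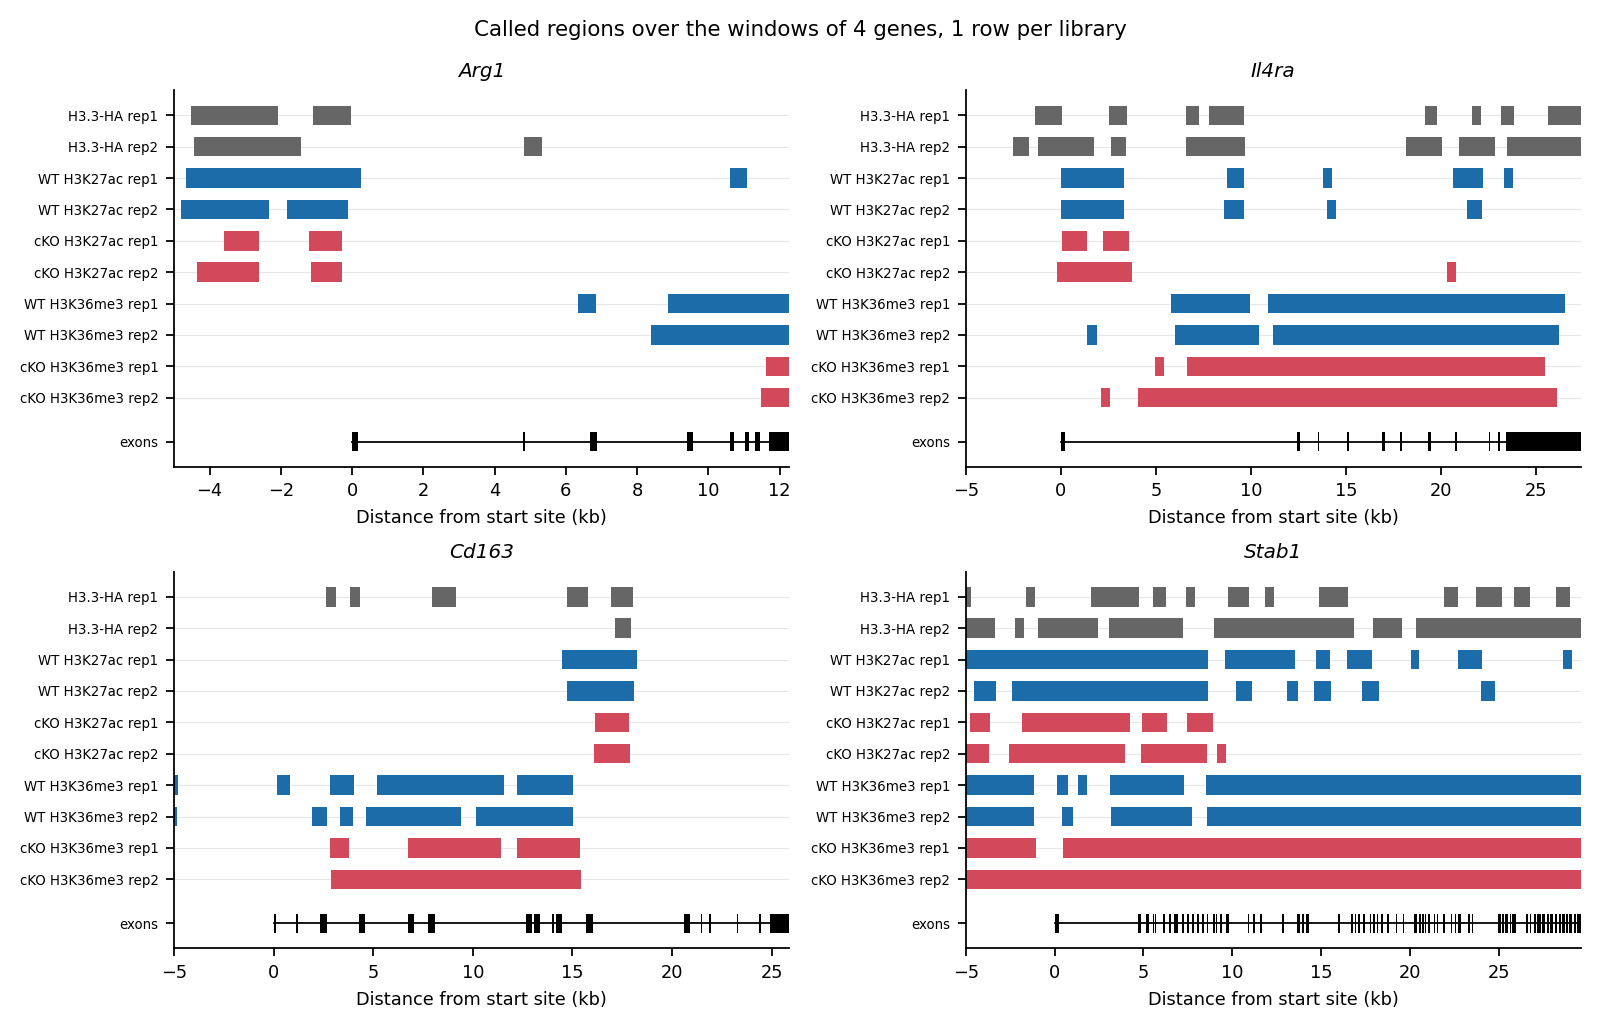
Called regions along Arg1, Il4ra, Cd163 and Stab1 by distance from the start site in kb, 1 row per library, clipped to the window, with exons as black bars. H3K27ac of cKO is shorter upstream of Arg1 and in Cd163 and is absent past 10 kb in Stab1.

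Of the enzymes, Arg1 encodes arginase 1, which turns arginine into ornithine and urea (ENSMUSG00000019987.9, chr10:24915221-24927484, minus strand, 8 exons). H3K27ac covered 31.3 and 24.2% of its window in WT and 11.2 and 15.0% in cKO, a difference of -14.6 points and 2.11-fold less in the mean. It lay almost wholly upstream of the gene. WT replicate 1 held a region of 4904 bp from -4.65 to 0.254 kb, and WT replicate 2 held regions of 1706 and 2473 bp. The cKO libraries held regions at the same places, of 933 and 1009 bp in replicate 1 and of 854 and 1740 bp in replicate 2.

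No Arg1 region was lost as a whole, then, but the regions were narrower in both cKO libraries. Of 4023 bases covered in both WT libraries, 45.8% were covered in both cKO libraries and 33.1% in neither. H3.3-HA was found upstream in both libraries, with a merged region from -4.52 to -1.45 kb, and 89.5% of the bases with H3.3-HA in both libraries carried H3K27ac in both WT libraries. Bases with and without H3.3-HA were kept alike, at 47.3 and 44.2%. In the gene body alone only WT replicate 1 had H3K27ac, so the groups overlapped there.

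H3K36me3 at Arg1 was at 22.5 and 22.4% in WT and 3.67 and 4.59% in cKO, 5.44-fold lower in the mean. It covered the 3′ end of the gene, beginning 8.87 and 8.39 kb from the start site in WT, where replicate 1 had a further short region inside the gene, and 11.6 and 11.5 kb in cKO. The merged region there was 48264 bp long and ran on past the end of Arg1 over Med23, the gene that meets it from the opposite strand. The cover of Med23 was 83.9 and 83.6% in WT and 67.6 and 87.0% in cKO, so its groups overlapped. What of the Arg1 value belongs to transcription of Arg1 cannot be told apart from the edge of the Med23 domain. Cass4 was the gene most like Arg1, at a distance of 9.89 points.

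F13a1 had the largest H3K36me3 difference of the 10 genes in cover as measured, though not with cover divided by the length of the lists. It encodes the A chain of coagulation factor XIII, a transglutaminase found in alternatively activated macrophages (ENSMUSG00000039109.16, chr13:36867178-37050244, minus strand, 15 exons). H3K36me3 covered 40.1 and 45.9% of its window in WT and 6.11 and 6.58% in cKO, a difference of -36.7 points and 6.78-fold less in the mean. Both cKO libraries were low, with lists of 90.7 Mb (replicate 1) and 163 Mb (replicate 2) against 164 and 170 Mb in WT. The part of list length in this difference was not tested.

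The 4 H3K36me3 lists merged into 49 regions at F13a1, of which 7 were in all 4 libraries and 16 were lost, together 46303 bp. The widest, 12090 and 10548 bp, lay over exons 14 and 15 and exons 9 and 10. Only 5.32% of the 53284 bases covered in both WT libraries were covered in both cKO libraries. Over the last 10% of the gene body the cover was 51.1 and 66.6% in WT and 0 in both cKO libraries.

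H3K27ac at F13a1 did not separate the genotypes as a sum. Its cover was 12.3 and 6.51% in WT and 2.26 and 7.57% in cKO. Inside the gene, 6 regions of 574 to 2364 bp were lost, from intron 3 to exon 15, and 1 of 1126 bp in intron 3 was gained (30.1 to 31.2 kb from the start site). A gained region was found at 2 of the 8 genes with H3K27ac, F13a1 and Chil3, and at 17.3% of all genes. A region within 36.5 to 41.7 kb was found in all 4 libraries. Near the start site the regions of the 4 libraries joined into 1 merged region, but that of WT replicate 2 began 0.687 kb inside the gene and did not touch that of cKO replicate 1, which ended at 0.168 kb. H3.3-HA was sparse, at 2.19 and 4.61%.

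**Figure D4:**
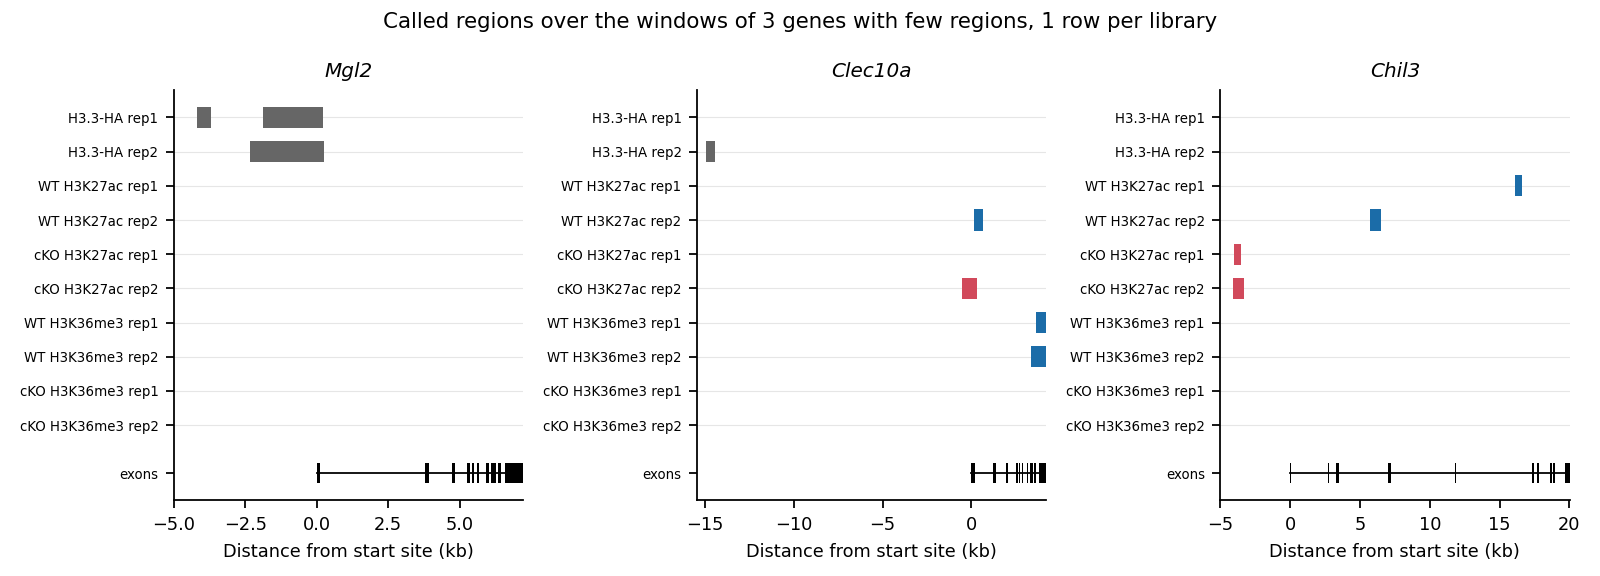
Called regions along Mgl2, Clec10a and Chil3 by distance from the start site in kb, 1 row per library, with exons as black bars (for Clec10a the start site is that of the model Clec10a-202). Mgl2 holds only H3.3-HA regions, and Chil3 holds an upstream H3K27ac region in both cKO libraries and none there in WT.

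The secreted proteins Chil3 and Retnla were almost bare. Chil3 encodes the chitinase-like protein Ym1 (ENSMUSG00000040809.10, chr3:106147554-106167564, minus strand), a member of a family of near-identical genes, so that 25 bp reads could have been placed on a copy or discarded. H3K27ac covered 2.0 and 3.08% in WT and 2.0 and 3.01% in cKO, each from a single region, and these lay at different places. Both cKO libraries had theirs within -4.08 to -3.33 kb, the gained region of 753 bp, while WT replicate 1 had one at 16.1 to 16.6 kb and WT replicate 2 one at 5.73 to 6.50 kb. In the gene body alone both cKO libraries were therefore at 0, a difference of -3.18 points. No H3.3-HA or H3K36me3 region lay in the window.

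Retnla encodes the resistin-like protein RELM-alpha (ENSMUSG00000061100.4, chr16:48842551-48844461, plus strand) and had no region in its window in any of the 10 libraries, as did 32.9% of all genes. The nearest H3K27ac regions lay 4.96 and 5.45 kb from the window in WT and 18.1 and 5.69 kb in cKO, and the nearest H3.3-HA regions 5.09 and 3.58 kb.

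**Figure D5:**
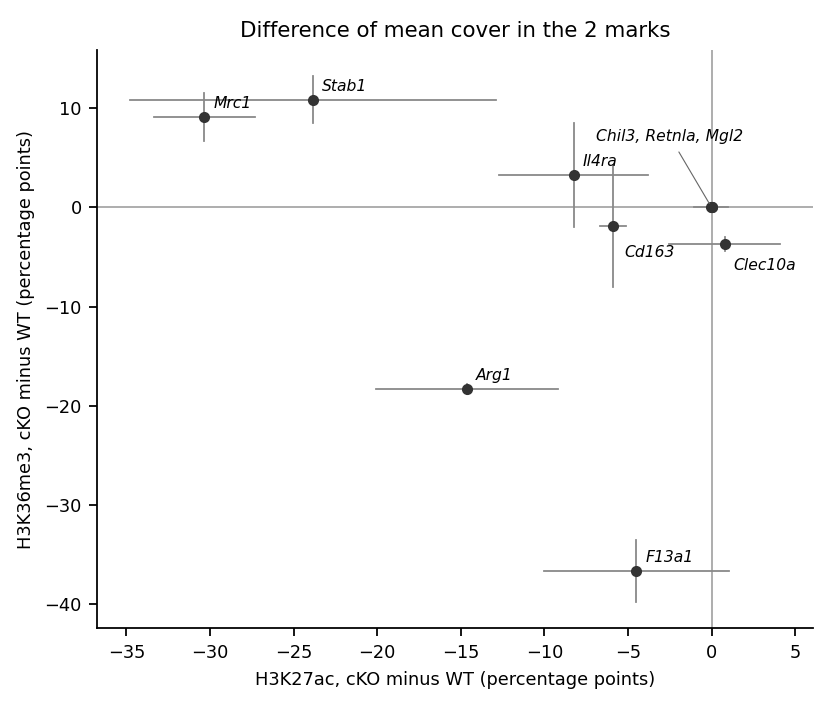
Difference of mean cover (cKO minus WT) of H3K27ac against that of H3K36me3 for the 10 genes, with lines from the smallest to the largest difference between a cKO and a WT library. Mrc1 and Stab1 lie at lower H3K27ac and higher H3K36me3, Arg1 lies low in both, and F13a1 lies lowest in H3K36me3 at -36.7 points.

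In WT the order of H3K27ac cover was Stab1 (55.8% ± 11.4), Mrc1 (35.8% ± 3.03), Arg1 (27.8% ± 5.02), Il4ra (19.2% ± 2.44), Cd163 (11.5% ± 0.955), F13a1 (9.43% ± 4.13), Chil3 (2.54% ± 0.763) and Clec10a (1.28% ± 1.80; SD, n = 2), and the libraries of neighbours overlapped for Cd163 and F13a1 and from Chil3 downward. Taken over the 10 genes, 75 merged H3K27ac regions were found, of which 9 were in all 4 libraries. Of the 75, 19 were lost (25.3%, against 14.2% of all 89774) and 2 were gained (2995 of all 89774 were). For H3K36me3 there were 64 merged regions, with 14 in all 4. Of the 64, 18 were lost (28.1%, against 9.50% of all 58545) and 0 gained (1433 of all 58545 were). Counted by gene, 0 of the 7 with H3K36me3 had a gained region, against 8.47% of all genes with the mark. Of the 18 lost H3K36me3 regions, 16 were at F13a1. Mrc1 and F13a1, the longest genes, supplied 14 of the 19 lost H3K27ac regions.

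Further genes were taken from 5 lists with 102 genes in all, of which 4 lists hold genes of alternative activation or tissue macrophages and 1 holds genes of classical activation. For H3K27ac 80 of them had a region, 31 were lower in cKO and 18 higher, with a median difference of -0.900 points, beside 38.2% lower, 17.4% higher and a median of -1.02 over all genes with a region. For H3K36me3 68 had a region, 18 were lower and 12 higher, with a median of -2.13 points, beside 37.7% lower, 7.85% higher and a median of -4.99 over all. These shares of all genes are also the background of the single lists, and no list was tested against them. Of 21 tissue-resident macrophage genes with H3K27ac, 14 were lower and 2 higher, with a median of -8.57 points. Over the 102 genes the largest negative differences were at the scavenger receptor gene Msr1, listed among the other effectors (63.3 and 69.7% in WT, 26.6 and 20.1% in cKO), and at the tissue-resident genes Hmox1 of haem breakdown (83.6 and 54.6%, 35.2 and 28.9%) and Slc40a1, the iron exporter (41.1 and 27.8%, 0 and 0%). Of 17 tissue-resident genes with H3K36me3, 1 was lower and 4 higher.

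Of 16 genes of IL-4 and IL-13 receptor signalling with H3K27ac, 3 were lower and 6 higher, with a median difference of 0.909 points. Of 14 with H3K36me3, 5 were lower and 1 higher, with a median of -10.00 points. Stat6, the transcription factor downstream of Il4ra, had H3K27ac at 25.6 and 24.5% in WT and 10.3 and 14.6% in cKO. The kinase gene Jak2 had H3K36me3 at 62.7 and 65.2% in WT and 20.6 and 46.5% in cKO. Transcription factors of alternative activation were lower in H3K36me3 at 9 of 16 genes and higher at 2, with Irf4 at 28.7 and 39.9% in WT and 0 and 6.61% in cKO. Their H3K27ac was lower at 4 of 15 and higher at 5, with the C/EBP beta gene Cebpb at 6.23 and 7.70% in WT and 24.7 and 53.0% in cKO.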

How the data were processed

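CUT&RUN libraries of BMDMs were sequenced by the authors as paired-end reads of 25 bp and aligned to mm10 with Bowtie2 in local mode. Per the file headers, HOMER called the regions from peaks 500 bp wide that lay at least 1000 bp apart, at a Poisson p of 1e-03, and kept those 4-fold over an IgG input at a p of 1e-04, also against the 10000 bp around them. The inputs differed by genotype. How reads with several matches were placed is not given in the sources used here. Each deposited line holds the coordinates of a region, and the score column the authors deposited holds 1 in every line, so the lists say where a region was called and not how strong it was.

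Starts were made 1-based. The percent of each window (gene body plus 5 kb upstream) covered by regions was computed for 21938 protein-coding genes of GENCODE M21 with Python 3.11.15 and numpy 2.4.6, and plotted with matplotlib 3.10.9. A gene was called lower or higher when both cKO libraries lay below or above both WT libraries. Regions of the 4 libraries of a mark that shared at least 1 bp were merged, and a merged region was lost when both WT and no cKO libraries held it, and gained in the opposite case. The steps were tested on simulated data. All 10 genes are described. Of the other pathway genes, those named are the 3 with the largest differences per mark and direction and, chosen after the values were seen, Stat6. One gene that this rule names is not reported here. The 10 genes and all lists were chosen with earlier results of these data known. No deletion, read count or signal was available in the lists to check the genotype, and counting intervals cannot be given for called regions.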

Additional observations from a re-analysis of the deposited data

How the results depend on the processing

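Alternatives were other windows, regions of at least 1 kb, lists of equal length, cover divided by the covered length of the list, a minimum difference, a stricter overlap and leaving out a library. Of 92 alternative counts 78 stayed within 1.5 times the count reported. Leaving out a library or pairing libraries only loosens the rule, so those counts could not fall. Pairing libraries by number left the lost and gained counts unchanged by construction. A count could also stay close while its genes changed. With 20 kb on both sides H3K27ac was lower at 6 genes, with Retnla and Clec10a added and Il4ra gone. In the gene body alone it was lower at 5, with Chil3 in place of Arg1. Of 135 alternative differences 27 moved by more than the replicate SD, and none changed sign where the groups had not overlapped. Where they had overlapped some did, among them H3K36me3 at Cd163 (-1.87 to 9.25 scaled by covered length and 4.25 without cKO replicate 1) and at Il4ra (3.27 to -1.73 without cKO replicate 2), and H3K27ac at Clec10a (0.782 to -2.83 with 20 kb on both sides) and at Chil3 (-0.0360 to 0.968 scaled). With the gene body alone the genes with a gained H3K27ac region were 1, with 20 kb on both sides those with a lost one were 8, and with regions of at least 1 kb they were 1 gained and 1 lost. For H3K36me3, 20 kb on both sides gave 1 higher gene and 1 with a gained region, and regions of at least 1 kb gave 1 with a lost one. Dividing by covered length gave 1 gene higher in H3K27ac (Chil3) and 4 in H3K36me3. Leaving out a library gave 0 to 1 genes higher in H3K27ac (1 without cKO replicate 1), 2 to 4 higher in H3K36me3 (4 without cKO replicate 1), 3 to 5 lower in H3K36me3 (5 without cKO replicate 2) and 0 to 3 with a gained H3K36me3 region (2 without cKO replicate 1, 3 without cKO replicate 2). The cause of these moves was not tested. With the replicate block, pairing libraries of the same number, 5 genes were lower and 0 higher in H3K27ac, and 3 and 2 in H3K36me3, as without it. Deviations of same-numbered libraries correlated at -0.101 (H3K27ac) and 0.104 (H3K36me3) over 2 pairs. A pairing could not be shown, and 2 pairs are too few to exclude one. A crossed pairing, added after seeing the data, gave 6 lower and 0 higher in H3K27ac. Called regions carry no read counts, so a region just under the calling threshold cannot be told from none.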

Other observations

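Among 15 genes of classical activation with an H3K27ac region, 4 were lower in cKO and 3 higher, with a median difference of 1.66 percentage points. Among 14 other effectors of alternative activation the counts were 7 and 2, with a median of -0.713 points. A further list was drawn up as paralogs and chromosomal neighbours of the 10 genes described. Of its 12 genes with an H3K27ac region, 6 were lower and 1 higher, with a median of -2.0 points. At Cebpb, Il23a and Myc H3K27ac was higher in both cKO libraries. Il23a, which encodes a subunit of IL-23, had 6.58 and 0% in WT and 22.1 and 31.2% in cKO, and Myc had 17.2 and 6.44% in WT and 19.7 and 42.9% in cKO. For H3K36me3, Axl, a receptor for dying cells, had 0 and 0% in WT and 7.98 and 53.3% in cKO, and Il10 had 12.9 and 11.2% in WT and 31.9 and 32.8% in cKO. The phosphatase gene Ptpn11 had 58.0 and 55.7% in WT and 15.7 and 48.7% in cKO.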
